A study of Mus musculus with 9 samples.

Results

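The tumour necrosis factor (TNF) superfamily was examined in myeloid cells of a healing wound. Its members were taken by symbol: every measured gene whose symbol begins with Tnfsf or Tnfrsf and a number, together with Tnf, Lta, Ltb, Fas, Fasl, Cd27 and Cd70. This gave 36 of the 22180 genes measured, 14 ligands and 22 receptors, each read by a single probe set. A probe set that carries the symbols of both Tnfsf12 and Tnfsf13, and a second probe set that shares the Tnfrsf18 symbol with another gene, were left out. Those ligands were not analysed here.

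The cells came from wild-type C57BL/6J male mice aged 8 weeks, whose hindpaw was taken 24 h after an incision of the sole. The cells were CD11b+, which marks the myeloid lineage, and Ly6G-, a gate meant to leave out neutrophils. They were sorted by surface Ly6C into Ly6C low, Ly6C medium and Ly6C high gates with 3 arrays each, and no unwounded tissue is among the arrays. Ly6C is abundant on newly recruited classical monocytes and scarce on many resident macrophages and dendritic cells. Nothing in the labels says that the arrays of a gate come from separate animals, and p-values here reflect only how far these samples scatter, which may be technical.

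Ligands of this superfamily are mostly membrane proteins of immune cells that act as trimers, on the surface or after shedding. Their receptors fall into those with a death domain, which can start apoptosis or necroptosis, those that bind TRAF adaptors and drive NF-kB and MAP kinase signalling, and decoys that bind a ligand without passing on a signal. Macrophages are a main source of TNF in inflamed tissue, and several other ligands carry costimulatory signals from antigen presenting cells to T cells.

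The values are log2 intensities normalized by RMA, in which a difference of 1 is a 2-fold change, and tests used limma with Benjamini-Hochberg adjustment over all genes. The sorted protein's transcript Ly6c2 stood at 8.33 ± 0.93 (SD, n = 3) in Ly6C low, 11.22 ± 0.04 in medium and 12.27 ± 0.20 in high. The myeloid genes Csf1r and Lyz2 were at 10.82 and 12.25 in low, 10.51 and 12.15 in medium, and 10.57 and 12.29 in high. Limma called 0 of 6 myeloid markers between low and high. Arrays of low and high did not overlap for Cd68 and Fcgr3, higher in low, and Ptprc, lower. That is 50% of the list, beside 20.1% of all genes. Itgam, the CD11b gene, was at 10.58 in low, 10.90 in medium and 11.02 in high (limma adjusted p = 0.0579 for low versus high). Ly6C low replicate 3 lay nearest to high in Ly6c2 and in the classical monocyte markers, whose mean was 8.44 on that array against 7.77 and 7.93 on the other low arrays. The array medians over the genes tested lay between 4.16 and 4.30. A value above the array's own median was reached on at least 3 arrays by 21 of the 36 members, on all 9 arrays by 15, and on 0 arrays by 11. No detection call came with the values, so a dim member cannot be separated from background here.

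Between Ly6C low and Ly6C high cells, 6 of the 36 members differed, 3 higher in low and 3 lower. Tnfsf4, which encodes OX40 ligand, and the receptor genes Tnfrsf17 and Tnfrsf18 were higher in low. Tnfsf14, which encodes the ligand LIGHT, and the receptor genes Fas and Tnfrsf1b were lower in low. The share called, 16.7%, stands beside 5.67% of all genes, which is 3.35% higher and 2.32% lower. The family's median log2 difference was 0.0062, against 0.012 over all genes. Of the 36 members, 10 had arrays of the gates that did not overlap, beside 20.1% of all genes.

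Promoter sequence was set beside the members that differed because they moved in opposite directions. RefSeq promoter entries of the mouse build GRCm38.p6 matched 29 of the 36 members and 5 of the 6 that differed. Tnfsf4 had no entry. The 250 bases before the annotated start are printed for those 5, in lower case, with motif matches in capitals. The motifs searched on both strands were the NF-kB motif, TGANTCA for AP-1 and GAGGAAG for PU.1, the ETS factor of myeloid cells, and no matches overlapped.
Tnfsf14, chr17:57194182-57194431, minus strand: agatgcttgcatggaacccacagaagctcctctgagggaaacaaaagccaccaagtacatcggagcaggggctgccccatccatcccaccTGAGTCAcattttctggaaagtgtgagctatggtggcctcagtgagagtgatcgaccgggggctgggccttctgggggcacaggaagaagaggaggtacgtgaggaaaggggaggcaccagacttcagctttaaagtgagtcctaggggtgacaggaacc
Fas, chr19:34290409-34290658, plus strand: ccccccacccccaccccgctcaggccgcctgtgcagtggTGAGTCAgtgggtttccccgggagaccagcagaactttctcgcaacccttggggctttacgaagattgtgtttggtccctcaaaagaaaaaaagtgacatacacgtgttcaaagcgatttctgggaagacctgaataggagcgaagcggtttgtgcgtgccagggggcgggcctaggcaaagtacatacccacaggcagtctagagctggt
Tnfrsf1b, chr4:145246871-145247120, minus strand: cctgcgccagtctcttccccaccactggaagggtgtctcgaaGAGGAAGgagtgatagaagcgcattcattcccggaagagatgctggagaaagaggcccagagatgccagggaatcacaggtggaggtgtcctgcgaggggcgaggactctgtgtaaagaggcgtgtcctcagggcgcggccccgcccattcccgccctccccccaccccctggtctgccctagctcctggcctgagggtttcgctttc
Tnfrsf17, chr16:11313559-11313808, plus strand: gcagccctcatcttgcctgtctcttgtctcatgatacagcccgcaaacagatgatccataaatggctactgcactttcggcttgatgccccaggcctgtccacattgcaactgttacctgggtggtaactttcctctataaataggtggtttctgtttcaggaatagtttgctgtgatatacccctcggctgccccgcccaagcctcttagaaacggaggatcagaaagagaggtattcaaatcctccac
Tnfrsf18, chr4:156026072-156026321, plus strand: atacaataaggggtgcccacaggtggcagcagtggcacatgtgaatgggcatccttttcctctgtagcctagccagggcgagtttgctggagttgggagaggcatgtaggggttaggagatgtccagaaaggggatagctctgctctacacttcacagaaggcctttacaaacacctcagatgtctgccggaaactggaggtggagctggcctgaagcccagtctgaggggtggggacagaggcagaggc
The AP-1 motif begins 160 bases before the start in Tnfsf14 and 211 bases before it in Fas. The PU.1 motif begins 208 bases before the start in Tnfrsf1b. Tnfrsf17 and Tnfrsf18 held none of these letters in the window. Among all 32851 promoters the AP-1 motif stood in 6.75%, the PU.1 motif in 10.6% and the NF-kB motif in 0.356%. Within the family they stood in 5, 5 and 1 of the 29 members with an entry, the last being Ltb. A match is a stretch of letters and no evidence of binding.

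**Figure D1:**
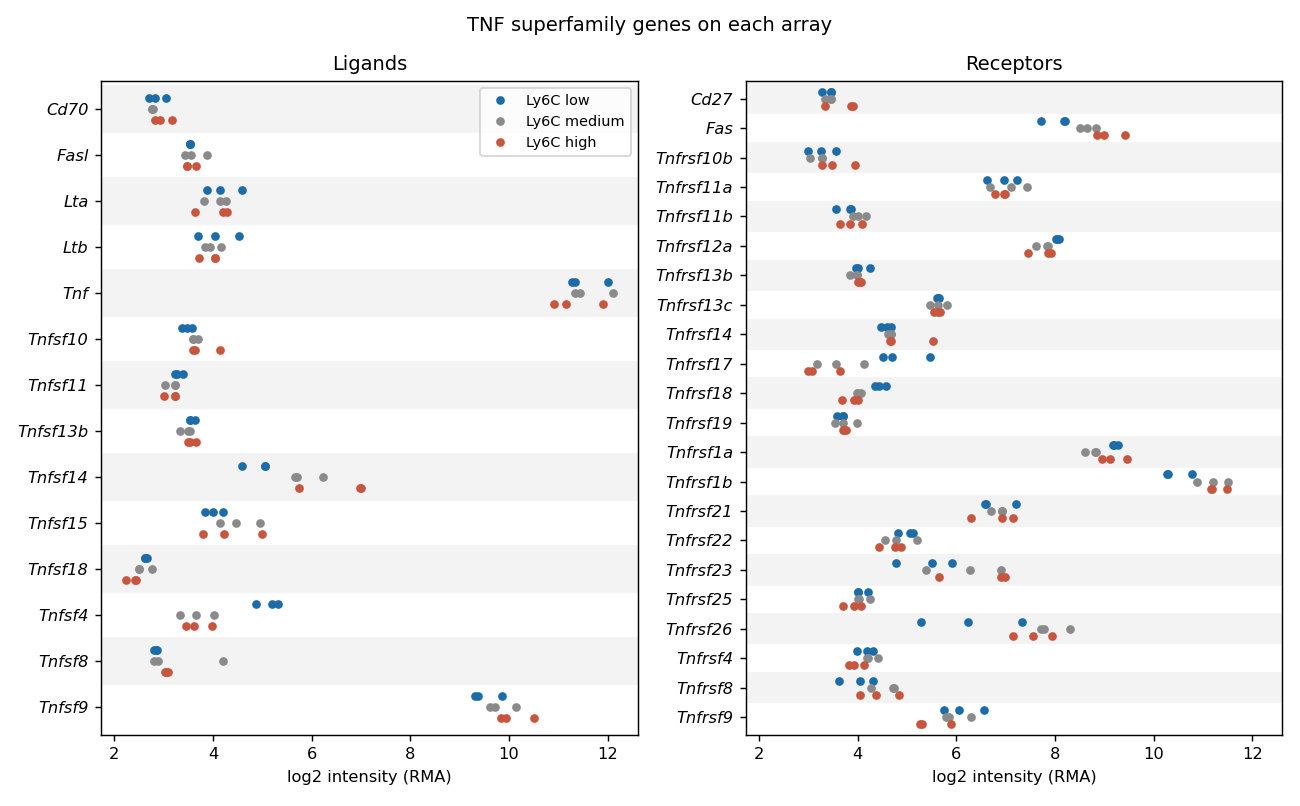
Each point is the log2 intensity of 1 array, for 14 ligand genes on the left and 22 receptor genes on the right, with Ly6C low, medium and high drawn as separate rows within each gene. Tnfsf4 and Tnfrsf17 on the low arrays lie to the right of the other gates, and Tnfsf14 and Fas on the low arrays lie to the left.

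Among the ligands, Tnfsf4 showed the clearest split by gate. OX40 ligand is displayed by activated antigen presenting cells and costimulates T cells through the receptor OX40. Tnfsf4 read 5.19, 4.86 and 5.32 on the Ly6C low arrays, 3.33, 3.65 and 4.03 on the medium arrays, and 3.62, 3.45 and 3.98 on the high arrays. All low arrays lay above all others, while medium and high overlapped. Low exceeded high 2.71-fold (log2 difference 1.44, SE 0.21, limma adjusted p = 0.00534) and medium 2.74-fold (1.45, SE 0.21, limma adjusted p = 0.013). The second call was lost without Ly6C low replicate 1 (limma adjusted p = 0.0587), while the first held without each of the 9 arrays in turn. Medium minus high was -0.01 (95% interval -0.48 to 0.46 from limma). Tnfsf4 exceeded the array median on 3 arrays, the low ones.

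Most dendritic cell markers moved with Tnfsf4. Of 8 such genes, limma called 4 higher in low than in high and 0 lower. By their means, 7 were higher in low and 1, Xcr1, was lower. Xcr1 was at 4.36 to 4.64 in low and 4.68 to 5.41 in high (limma adjusted p = 0.402). The mean log2 level of the 8 genes was 6.74 to 6.99 in low, 5.36 to 5.49 in medium and 4.96 to 5.47 in high. Ccr7, a chemokine receptor of migrating dendritic cells, was measured at 9.48 ± 0.12 (SD, n = 3) in low, 6.72 ± 0.29 in medium and 6.41 ± 0.64 in high. Tissue macrophage markers, 8 of 8 higher in low than high, had means of 9.57 to 9.77 in low, 7.51 to 8.37 in medium and 6.60 to 7.06 in high. Eosinophil markers, of which limma called 3 of 5 higher in low than high, had means of 4.81 to 4.94 in low, 4.09 to 4.44 in medium and 3.84 to 4.06 in high. The part of these cells in the Tnfsf4 difference was not tested. In sorted populations such as these, fewer cells of a type and less RNA per cell cannot be told apart. The OX40 gene itself, Tnfrsf4, was at 3.99 to 4.31 in low, 4.19 to 4.41 in medium and 3.82 to 4.12 in high, with adjusted p = 0.477 for low versus high by limma.

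Tnfsf14 went the other way. LIGHT, its product, binds the receptors HVEM and LTBR on lymphoid, myeloid and stromal cells. Tnfsf14 read 5.05, 5.04 and 4.59 on the low arrays, 5.69, 5.66 and 6.24 on the medium arrays, and 6.99, 5.75 and 6.98 on the high arrays. The low arrays lay below all others, and high replicate 2 fell within the range of the medium arrays. Low was 3.20-fold below high (log2 difference -1.68, SE 0.33, limma adjusted p = 0.0203). The call was lost without low replicate 1, 2 or 3 (limma adjusted p = 0.0604, 0.0587 and 0.0561) and without high replicate 1 or 3 (0.0609 and 0.0698). Low minus medium was -0.97 (limma adjusted p = 0.21) and medium minus high -0.71 (95% interval -1.45 to 0.03). Tnfrsf14, the HVEM gene, was at 4.48 to 4.67 in low, 4.61 to 4.67 in medium and 4.65 to 5.54 in high, with adjusted p = 0.441 for low versus high by limma.

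Tnf itself did not separate the gates. It read 11.33, 11.29 and 12.004 on the low arrays, 11.34, 11.44 and 12.12 on the medium arrays, and 10.92, 11.15 and 11.90 on the high arrays. The gates overlapped, and the array numbered 3 was the highest of each gate. Low minus high was 0.22 (95% interval -0.48 to 0.91, limma adjusted p = 0.826). Tnfsf9, the ligand of the T cell receptor encoded by Tnfrsf9, read 9.37, 9.32 and 9.85 in low, 9.71, 9.62 and 10.14 in medium, and 9.84, 9.93 and 10.51 in high. Its difference of -0.58 between low and high had an adjusted p of 0.2 by limma. Low replicate 3 lay inside the range of the high arrays.

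The other ligands stayed low on this array and passed no test. Fasl, the death ligand of cytotoxic lymphocytes, lay at 3.54 on each low array, 3.42 to 3.88 in medium and 3.48 to 3.66 in high. Tnfsf10, which encodes TRAIL, was at 3.38 to 3.57 in low, 3.60 to 3.70 in medium and 3.60 to 4.15 in high. Its low arrays lay below the others, yet the difference of -0.32 had an adjusted p of 0.305 by limma. Tnfsf13b, which encodes the B cell survival factor BAFF, was at 3.53 to 3.63 in low, 3.33 to 3.53 in medium and 3.49 to 3.65 in high. Lta and Ltb, the lymphotoxin chains, Cd70, the CD27 ligand, Tnfsf8, the CD30 ligand, and Tnfsf11, the osteoclast factor RANKL, had mean levels of 2.76 to 4.20 in every gate. Tnfsf18, the GITR ligand, had means of 2.36 to 2.63, and Tnfsf15, the ligand of death receptor 3, of 4.01 to 4.51. Fasl, Tnfsf10, Tnfsf13b, Cd70, Tnfsf8, Tnfsf11 and Tnfsf18 exceeded the array median on 0 arrays.

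Of the 5 death domain receptors, 1 passed for low versus high, Fas, which was lower in low, beside 5.67% of all genes. Fas, the receptor that triggers apoptosis when bound by Fas ligand, read 7.71, 8.18 and 8.20 on the low arrays, 8.52, 8.84 and 8.64 on the medium arrays, and 9.002, 8.85 and 9.42 on the high arrays. The gates formed 3 separate bands in the order of Ly6C, although medium replicate 2 and high replicate 2 nearly touched. For Fas, low was 2.09-fold below high (log2 difference -1.06, SE 0.18, limma adjusted p = 0.0125), and the call held without each of the 9 arrays in turn (limma adjusted p up to 0.0423). Low minus medium was -0.64 (limma adjusted p = 0.137) and medium minus high -0.43 (limma adjusted p = 0.648), and neither step passed alone.

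Tnfrsf1a, the ubiquitous receptor that carries most cytotoxic TNF signals, had another pattern. It read 9.28, 9.18 and 9.21 on the low arrays, 8.80, 8.82 and 8.60 on the medium arrays, and 9.47, 9.12 and 8.95 on the high arrays. The medium arrays lay below those of both other gates, which overlapped. Low minus medium was 0.48 (SE 0.14, limma adjusted p = 0.141) and medium minus high -0.44 (SE 0.14, limma adjusted p = 0.479), and neither passed. Tnfrsf10b, the TRAIL receptor of the mouse, Tnfrsf21, known as death receptor 6, and Tnfrsf25, known as death receptor 3, had adjusted p of 0.515 to 0.996 by limma for low versus high. Tnfrsf21 ranged from 6.57 to 7.22 in low, 6.70 to 6.94 in medium and 6.29 to 7.15 in high.

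Of the 13 TRAF-binding receptors, 3 passed for low versus high, Tnfrsf17 and Tnfrsf18 higher in low and Tnfrsf1b lower, beside the 5.67% of all genes. Tnfrsf1b encodes the second TNF receptor, found mainly on immune and endothelial cells, where it binds membrane TNF and lacks a death domain. It read 10.29, 10.26 and 10.79 in low, 11.21, 10.87 and 11.52 in medium, and 11.16, 11.18 and 11.49 in high. All low arrays lay below the rest, and medium overlapped high. For Tnfrsf1b, low was 1.77-fold below high (log2 difference -0.83, SE 0.20, limma adjusted p = 0.0454). It no longer passed when any of 6 arrays was left out, namely low replicates 1 and 2 (limma adjusted p = 0.152 and 0.148), medium replicate 1 (0.0763) and high replicates 1, 2 and 3 (0.0807, 0.0939 and 0.142). Low minus medium was -0.75 (limma adjusted p = 0.106).

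Markers of fibroblasts moved in the same direction as Tnfsf14, Fas and Tnfrsf1b. All 8 were lower in low than in high, with a list mean of 5.02 to 5.30 in low, 5.74 to 5.93 in medium and 7.73 to 8.98 in high. All 8 were also lower in medium than in high, where limma called 6 of them. Medium minus high was -0.71 for Tnfsf14 (95% interval from limma -1.45 to 0.03), -0.43 for Fas (-0.84 to -0.01) and -0.07 for Tnfrsf1b (-0.52 to 0.38). None of the 3 was called. Within Ly6C high, the fibroblast means of replicates 1, 2 and 3 were 8.98, 8.40 and 7.73. Fas and Tnfrsf1b were highest on replicate 3 of that gate. Tnfsf14 was at 6.99 on replicate 1, 5.75 on replicate 2 and 6.98 on replicate 3. For Tnfrsf1b replicate 3 was the highest array of every gate. The classical monocyte list, of which 5 of 6 measured genes were lower in low than in high, had means of 7.77 to 8.44 in low, 9.30 to 9.57 in medium and 10.12 to 10.29 in high. The part of fibroblasts and monocytes in the differences of Tnfsf14, Fas and Tnfrsf1b was not tested.

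Tnfrsf17 and Tnfrsf18 were higher in Ly6C low. Tnfrsf17 encodes BCMA, a receptor for BAFF and APRIL known for the survival of plasma cells. Its values were 4.69, 5.47 and 4.51 in low, 3.55, 4.12 and 3.17 in medium, and 2.99, 3.64 and 3.08 in high. The low arrays lay above all others, and replicate 2 was the highest of each gate. For Tnfrsf17, low exceeded high 3.15-fold (log2 difference 1.66, SE 0.31, limma adjusted p = 0.0171). This is a ratio of intensities whose lower values lie below the array medians, and not a measured ratio of transcripts. The call was lost without low replicate 2 (limma adjusted p = 0.0529), high replicate 1 (0.0545) or high replicate 3 (0.0612). Of the B cell markers 4 of 5 were measured, and their mean was 3.77 to 3.90 in low, 3.90 to 4.32 in medium and 3.74 to 3.92 in high. Limma called 0 of these 4 between low and high, also at an unadjusted p under 0.05. They were Cd79a, Cd79b, Ms4a1 and Pax5. No list of plasma cell markers was read, so these values do not speak to plasma cells. The other BAFF receptors, Tnfrsf13b and Tnfrsf13c, had means of 4.07 and 5.63 in low, 3.94 and 5.63 in medium, and 4.04 and 5.62 in high.

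Tnfrsf18 encodes GITR, a costimulatory receptor best known on regulatory T cells. It read 4.57, 4.35 and 4.44 in low, 4.07, 3.99 and 4.01 in medium, and 3.92, 3.69 and 4.01 in high. The low arrays lay above the rest, and the step was small, 1.49-fold over high (log2 difference 0.58, SE 0.11, limma adjusted p = 0.0195). The call was lost without low replicate 1 (limma adjusted p = 0.0751) or high replicate 2 (0.0544). T cell markers had a mean of 3.64 to 3.74 in low, 3.48 to 3.59 in medium and 3.42 to 3.59 in high over 5 measured genes. Limma called 0 of them between low and high, against 1 at an unadjusted p under 0.05, Cd4. It was at 5.16 in low, 4.42 in medium and 4.30 in high (limma adjusted p = 0.0884 for low versus high). Cd3e was at 2.97 in low, 3.09 in medium and 3.10 in high. Tnfrsf17 and Tnfrsf18, like Tnfsf4, exceeded the array median on 3 arrays each, so the folds of all 3 genes are set against dim values. The part of other cells in these values was not tested.

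**Figure D2:**
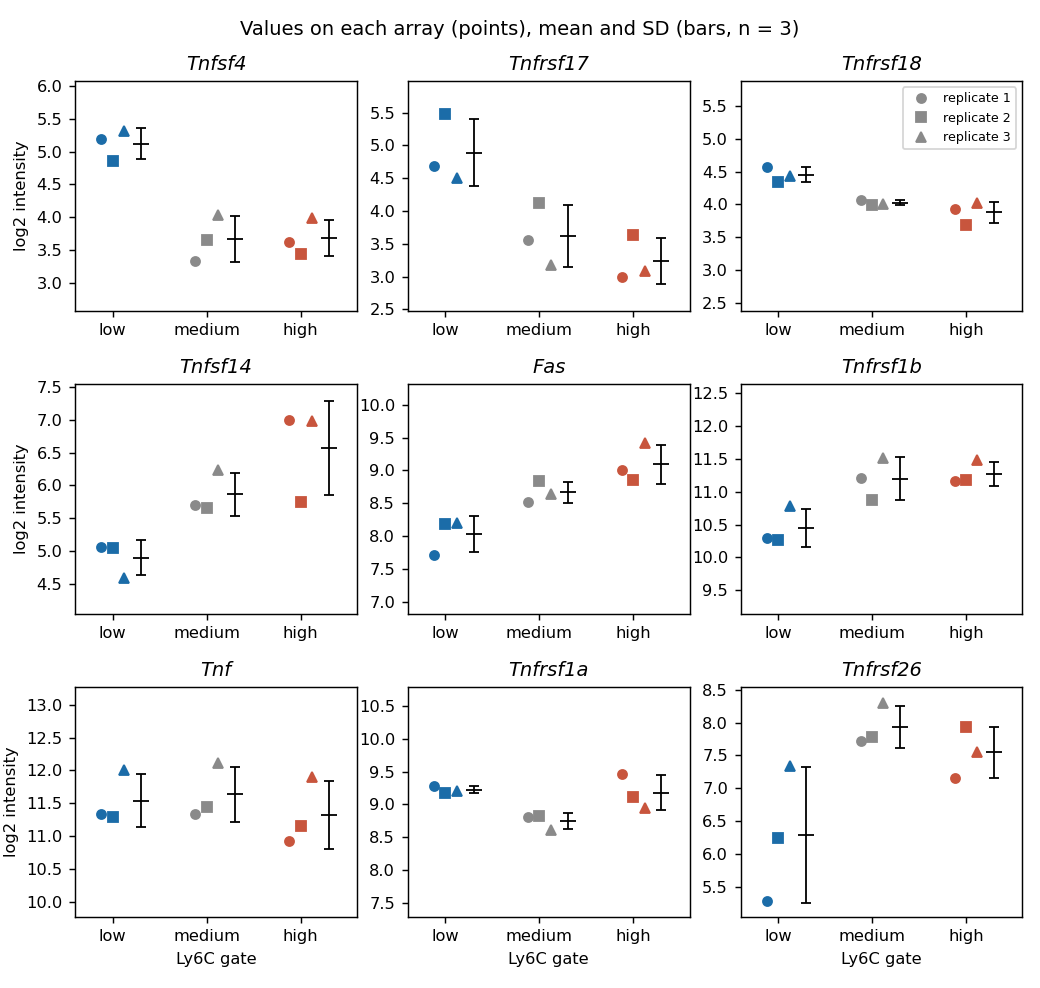
Log2 intensity of 9 members on each array, with Ly6C low, medium and high from left to right, marker shape giving the replicate number and black bars the mean and SD of 3 arrays. Every panel spans the same number of log2 units. Tnfsf4, Tnfrsf17 and Tnfrsf18 are highest in low, Tnfsf14, Fas and Tnfrsf1b are lowest in low, and Tnf overlaps between gates.

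Other TRAF-binding receptors did not differ past the threshold. Tnfrsf9, an activation-induced costimulatory receptor, was at 5.75 to 6.57 in low, 5.80 to 6.29 in medium and 5.26 to 5.90 in high (difference low minus high 0.63, limma adjusted p = 0.212). Tnfrsf12a, the receptor of the ligand TWEAK, was at 8.01 to 8.08 in low, 7.62 to 7.86 in medium and 7.45 to 7.92 in high. Its low arrays lay above the others by a narrow margin (limma adjusted p = 0.278 for low versus high). Tnfrsf11a, the RANK gene of osteoclast precursors, read 7.24, 6.97 and 6.62 in low, 7.43, 6.69 and 7.11 in medium, and 6.98, 6.79 and 6.97 in high. These gates overlapped, with a low minus high difference of 0.03 (95% interval -0.43 to 0.49 from limma). Cd27, Tnfrsf8 and Tnfrsf19, which encode CD27, CD30 and TROY, had means of 3.40 to 4.57 over the gates. Cd27 passed for low versus high without high replicate 1 (limma adjusted p = 0.0469, difference -0.49), against an adjusted p of 0.354 with all arrays.

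Of the 4 decoy and short receptors, 0 passed for low versus high, beside 5.67% of all genes. At an unadjusted p under 0.05 there were 2, Tnfrsf23 and Tnfrsf26, both lower in low, beside 17.9% of all genes in either direction (1654 of 22180 lower). Tnfrsf22 and Tnfrsf23 encode mouse decoy receptors for TRAIL, and they lie beside Tnfrsf26 in the annotation of GRCm38.p6. Tnfrsf26 read 5.27, 6.24 and 7.34 on the low arrays, 7.72, 7.78 and 8.31 on the medium arrays, and 7.15, 7.94 and 7.55 on the high arrays. The low arrays lay below the medium arrays but spread over 2 log2 units, and low replicate 3 overlapped high. Neither low minus medium (-1.65, SE 0.45, limma adjusted p = 0.118) nor low minus high (-1.26, adjusted p = 0.165) passed. Without low replicate 3 both did, at -2.18 (limma adjusted p = 0.021) and -1.79 (0.0219). Tnfrsf23 was at 4.78 to 5.92 in low, 5.38 to 6.91 in medium and 5.65 to 6.996 in high (limma adjusted p = 0.258 for low versus high). Tnfrsf22 stayed within 4.43 to 5.20 on all arrays. Tnfrsf11b, which encodes the secreted RANKL decoy osteoprotegerin, stayed within 3.55 to 4.18.

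Genes of the family lie close together in the genome. In the same annotation 18 of the 36 members form 11 pairs that are next to each other among protein-coding genes. Tnfsf4 neighbours Tnfsf18 on chromosome 1, Tnfsf14 neighbours Cd70 on chromosome 17, and Tnfrsf1b and Tnfrsf18 neighbour Tnfrsf8 and Tnfrsf4 on chromosome 4. In each of these pairs the first gene named, or for chromosome 4 Tnfrsf1b and Tnfrsf18, passed for low versus high and the neighbour did not. The limma adjusted p of the neighbours were 0.221 for Tnfsf18, 0.742 for Cd70, 0.428 for Tnfrsf8 and 0.477 for Tnfrsf4. Whether neighbours differ from each other was not tested.

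Between Ly6C medium and Ly6C high, limma called 0 of the 36 members, against 0.239% of all genes (0.0406% higher and 0.198% lower) and 3 members at an unadjusted p under 0.05, a threshold that 7.53% of all genes met. Those 3 were Tnfrsf4, higher in medium at 0.31, and Tnfrsf1a and Fas, lower at -0.44 and -0.43. The family's median difference was 0.03, also 0.03 over all genes, and 7 members had arrays that did not overlap, beside 10.7% of all genes. Between Ly6C low and Ly6C medium, limma called 1 of the 36, Tnfsf4, which was higher, beside 1.93% of all genes (1.38% higher and 0.541% lower). The median was -0.04 against -0.02 over all genes, and 11 members did not overlap, beside 16.8% of all genes. These comparisons share the arrays of a gate with low versus high, so their values stand side by side and were not compared with each other.

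**Figure D3:**
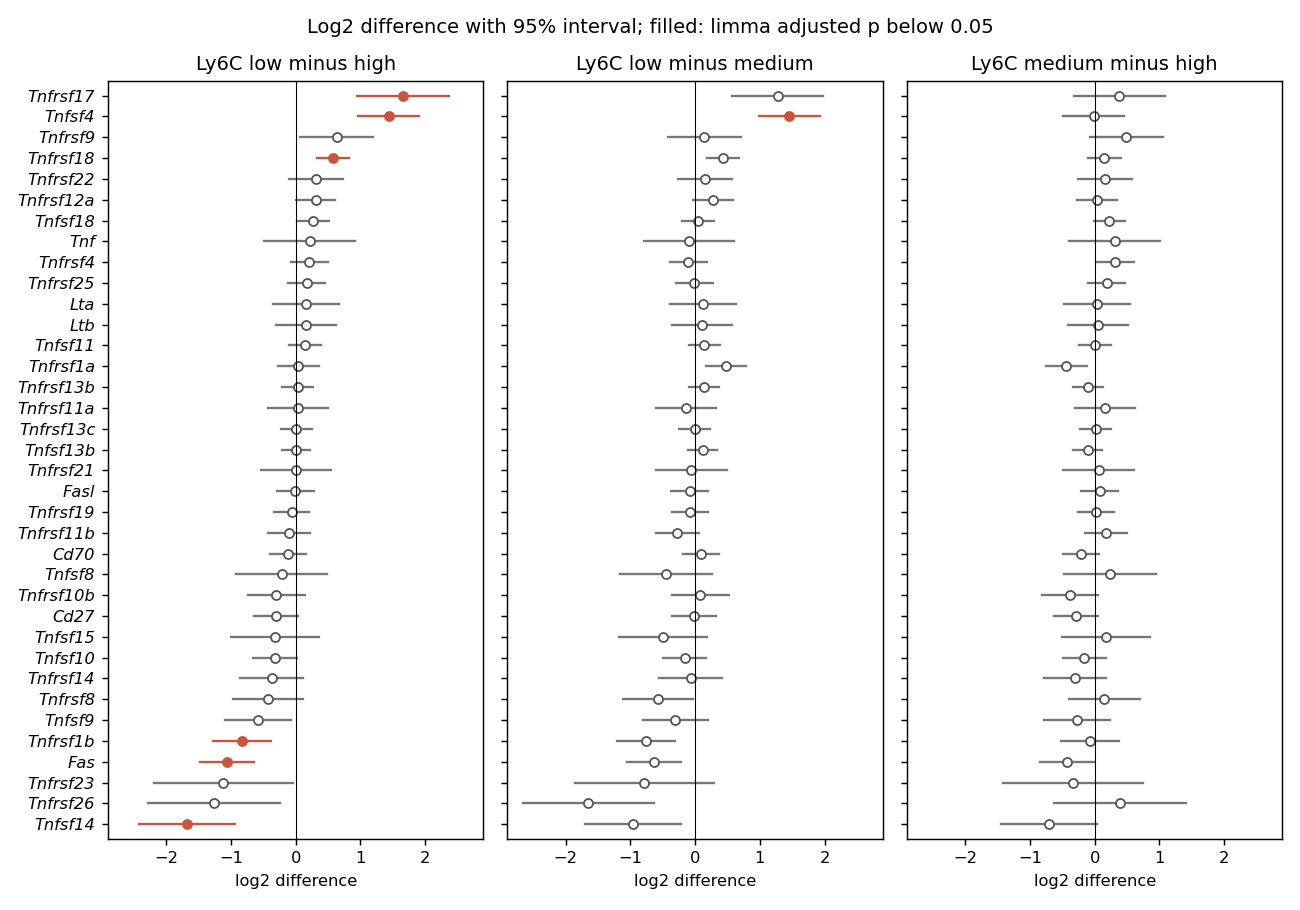
Log2 differences of the 36 members for low minus high, low minus medium and medium minus high, with 95% intervals from limma, sorted by the first comparison, and filled where the adjusted p is below 0.05. The first panel has 6 filled points, the second has 1, Tnfsf4, and the third has 0.

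Genes of TNF signalling were read from lists of 81 genes, and 73 of them had a usable probe set. The other 8 were not analysed here. Not all of the 73 act downstream of the receptors. They include 8 family genes with other names and 10 genes for ligand processing and mRNA control. Between Ly6C low and high 2 of the 73 differed, both lower in low, and both from the list of TNF-induced genes (2 of 10). Limma called 0 of 73 higher. At an unadjusted p under 0.05, 3 were higher and 18 lower. Of all 22180 genes 2306 were higher and 1654 lower at that threshold, 17.9% in either direction. The median difference was -0.10 over the 73 genes and 0.012 over all genes. The share called was 2.74%, beside 5.67% of all genes. The count was 1 without low replicate 1 or 2, medium replicate 1 or high replicate 3, and 5 without low replicate 3.

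Tnfaip6, a secreted hyaluronan-binding protein that stromal and myeloid cells make under TNF, was at 4.95 ± 0.73 (SD, n = 3) in low, 6.68 ± 0.36 in medium and 8.21 ± 0.54 in high. Low was 9.58-fold below high (limma adjusted p = 0.0021). Vcam1, an adhesion molecule of activated endothelium and stroma, was at 5.16 ± 0.31 in low, 5.95 ± 0.65 in medium and 6.62 ± 0.47 in high, with low 2.75-fold below high (limma adjusted p = 0.04). Fibroblast markers moved the same way, with the means given above, and endothelial markers had means of 4.50 to 5.14 in low, 4.81 to 4.93 in medium and 5.31 to 5.95 in high. The part of these cells in the Tnfaip6 and Vcam1 differences was not tested.

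Limma called 0 genes between low and high among 16 adaptors and kinases, 14 ubiquitin ligases and deubiquitinases, 9 genes of the NF-kB module and 6 caspases and regulators. It also called 0 of 10 genes for ligand processing and mRNA control and 0 of 8 family genes with other names. At an unadjusted p under 0.05 those lists had 1, 7, 3, 1, 4 and 1 genes, and 17.9% of all genes met that threshold. Adam17, the protease that sheds TNF, was at 8.98 ± 0.26 (SD, n = 3) in low, 9.48 ± 0.30 in medium and 9.67 ± 0.22 in high (limma adjusted p = 0.0758 for low versus high). Cd40, a receptor of antigen presenting cells, stood at 7.53 in low, 7.37 in medium and 7.52 in high, and Ltbr, the lymphotoxin receptor gene, at 8.14, 7.65 and 7.74 in the same order.

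Between Ly6C low and medium 1 of the 73 differed (1.37%), beside 1.93% of all genes. It was Tnfaip8l2, which restrains immune receptor signalling in mice. It was at 7.61 ± 0.21 (SD, n = 3) in low, 6.77 ± 0.18 in medium and 7.52 ± 0.21 in high, 1.79-fold higher in low than in medium (limma adjusted p = 0.0339). The count for this comparison was 0 without low replicate 1 or 2, any medium replicate or high replicate 1, and 4 without low replicate 3. Between medium and high limma called 0 of the 73, against 10 at an unadjusted p under 0.05, which 7.53% of all genes met.

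**Figure D4:**
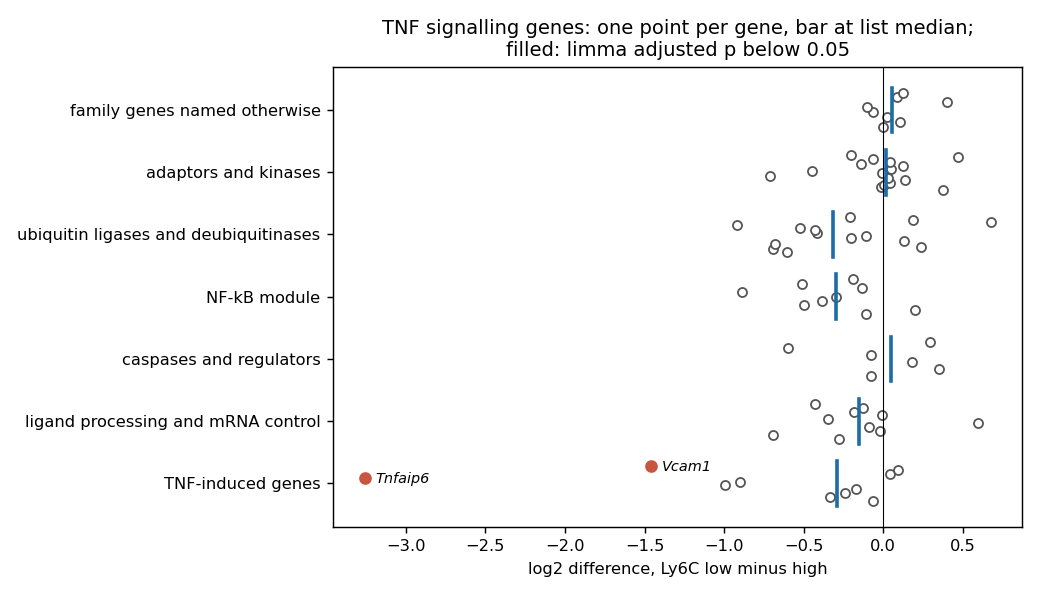
Log2 difference of Ly6C low minus high for 73 signalling genes, 1 point per gene in 7 lists, with a bar at each list's median and filled points where the limma adjusted p is below 0.05. Only Tnfaip6 and Vcam1 are filled, and both lie left of 0.

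**Figure D5:**
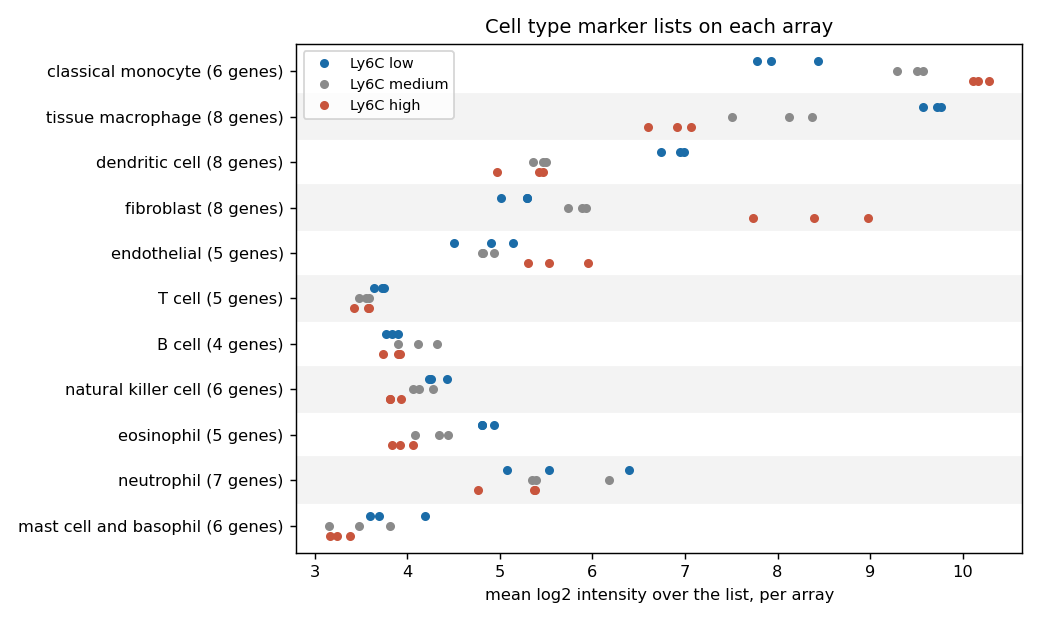
Mean log2 intensity over each list of cell type markers, 1 point per array, with Ly6C low, medium and high as separate rows. The fibroblast list is highest in Ly6C high, at 7.73 to 8.98, and the dendritic cell list is highest in Ly6C low, at 6.74 to 6.99, while the T cell list lies at 3.42 to 3.74 and the B cell list at 3.74 to 4.32 over all arrays.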

How the data were processed

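The deposited values are log2 intensities per probe set, for which the submitters' processing notes name RMA. Its version, its settings and a genome build are not given in the sources used here. The RNA was amplified before labelling, per the labels' protocols. Of 41345 probe sets, 23521 carried a single symbol, 1814 carried several and the probe table did not list the other 16010. The probe set with the highest mean was kept per gene, which left 22180 genes, all tested.

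Two-sided tests came from lmFit and eBayes of limma 3.58.1 in R 4.3.3, fitted to all 9 arrays with the gate as the only term and 6 residual degrees of freedom. P-values were adjusted by Benjamini-Hochberg over all genes, at a threshold of 0.05. The procedure was tested on simulated data. Alternatives were other scalings, probe set rules, filters, priors, weights, replicate blocks, a 2-fold threshold and leaving out arrays.

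Values on every array are given for members past the threshold in any comparison and for 8 members set by name, and for Tnfsf9, Tnfrsf26 and others chosen after their values were seen. From the signalling lists up to 4 called genes per comparison are named. Adam17, Cd40 and Ltbr were chosen after their values were seen. The members and lists were chosen with earlier results of these data known. RefSeq gave promoters and gene order (GRCm38.p6). The number of arrays limits the precision.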

Additional observations from a re-analysis of the deposited data

How the results depend on the processing

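The 6 member calls for low versus high became 3 with only the 2 gates in the fit (2 higher and 1 lower), where 2.9% of all genes were called. There were also 3 with a log2 value of at least 6 required on 3 arrays, a filter that kept 12 members. It left 6306 genes in all, of which 20.7% were called. That filter removed Tnfsf4, Tnfrsf17 and Tnfrsf18, while Tnfsf14, Fas and Tnfrsf1b stayed called. Tnfsf14 reached 6 on 3 arrays, high replicates 1 and 3 and medium replicate 3, so it was kept through the gates where it was higher. Leaving out each array gave 3 to 6 calls, with 3 without low replicate 1, low replicate 2 or high replicate 3. The 1 call for low versus medium, Tnfsf4, became 2 when genes had to exceed the array median on at least 3 arrays, with Tnfrsf17 added. Of all genes left by that filter, 5.21% were called. It kept Tnfsf4, Tnfrsf17 and Tnfrsf18 through the low arrays alone, the gate where they were high. The added call is therefore no separate support. With the filter at 6, which removed Tnfsf4, there were 2 others, Tnfrsf1b and Tnfrsf26, beside 9.4% of all genes it left. Without each array there were 0 to 2, with 0 without low replicate 1 and 2 without low replicate 3. Medium versus high stayed at 0 under all 20 alternatives.

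With the replicate number as a fixed replicate block, low versus medium had 4 calls (Tnfsf4, Tnfrsf17, Tnfrsf1b and Tnfrsf26) and low versus high had 7, adding Tnfsf9 (limma adjusted p = 0.0165). Of all genes, 2.84% were called with that block for low versus medium and 7.05% for low versus high. No label ties same-numbered samples to a shared animal or batch. Same-numbered arrays of different gates had deviations that correlated at -0.017 to 0.31, over 0.1 in 4 of 9 pairs. Differently numbered arrays of different gates correlated at -0.18 to 0.15. In both other gates, 3 of 9 arrays correlated best with their own number. The random replicate block gave the same 6, 0 and 1 calls.

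No called difference changed sign under any alternative. Repeating quantile normalization left the 6, 0 and 1 calls and moved the share of higher genes among all low versus medium calls to 59.9% (242 higher and 162 lower), against 71.9% (307 and 120). The 2 signalling calls for low versus high became 7 and 8 with the filters on dim genes and 9 with the fixed block, with 1 to 5 without each array. The share of all genes called rose as well, from 5.67% to 13.1% with the median filter, 20.7% with the filter at 6 and 7.05% with the block. For low versus medium the signalling count was 0 to 4 without each array. Over all genes, calls for low versus high were 596 to 1243 without each array, 644 with 2 gates in the fit and 598 at 2-fold or more, against 1258. For low versus medium they were 119 to 522, 211 and 227, against 427. For medium versus high they were 2 to 72 and 1, against 53. Filters on dim genes leave fewer genes to adjust over, and gave no value for the members they removed.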

Other observations

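The array numbered 3 was the highest of its gate in all 3 gates for 6 of the 36 members (16.7%), Tnf, Tnfsf4, Tnfsf9, Tnfrsf10b, Tnfrsf1b and Tnfrsf23, and for 4.64% of all genes. The mean of the neutrophil marker list was also highest on the array numbered 3 in each gate. It read 5.07, 5.53 and 6.39 in low, 5.35, 5.39 and 6.18 in medium, and 4.77, 5.37 and 5.38 in high. Within that list S100a8, S100a9 and Cxcr2 were highest on the array numbered 3 in each gate. Ly6g, Csf3r, Ngp and Camp were not. In high, Ly6g read 2.88, 3.28 and 2.91, and Csf3r 8.10, 8.56 and 8.23. The part of neutrophils in the values of the 6 family members was not tested. The array numbered 1 was highest in all gates for 1 member, Tnfrsf11a (4.51% of all genes), and the array numbered 2 for 1, Tnfrsf17 (2.18%).

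Several dim members carried the same value on more than 1 array. Tnfsf11 had 5 distinct values over 9 arrays, and Cd27, Tnfrsf14, Tnfrsf19 and Tnfsf13b had 6. Tnfrsf26, Tnfsf14 and Tnfrsf17 had 9 each, as did Tnf and Fas.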
